A study of Mus musculus with 26 samples.

Results

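The Podxl pA line is a mouse embryonic stem cell (ESC) line in which the RNA of Podxl is cut short after the start of its coding sequence. It was compared with the parental E14 cells (ES-E14TG2a, here WT) it was made from, both grown as ESCs, and the comparison was described over all genes. It rests on 6 of the 26 RNA-seq libraries of the series, 3 of ESC Podxl pA and 3 of ESC WT, chosen by the cell type and line that their labels give. The study asked how the chromatin protein CTCF and the RNAs it binds hold chromatin loops in ESCs and in neural progenitor cells (NPCs), and Podxl was truncated as an RNA that is induced in NPCs.

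To make the line, E14 ESCs were cut with CRISPR-Cas9 at Podxl and given a donor carrying a self-cleaving peptide, eGFP and an SV40 polyadenylation signal (pA), in frame with the coding sequence. Cells were selected with puromycin and sorted for eGFP, and homozygous clones were picked. The labels name 1 Podxl pA line, so the effect of the truncation and the history of that line cannot be told apart, and the insertion removes most of the protein as well as most of the RNA. WT cells carried neither the donor nor the eGFP. Both were grown on gelatin in N2B27 medium with 3% serum, leukemia inhibitory factor, 3 µM of the GSK3 inhibitor CHIR99021 and 1 µM of the MEK inhibitor PD0325901. The Grb10 pA line was made from E14 in the same way with the insertion in Grb10, and 3 libraries of it as ESCs were compared with Podxl pA. NPC WT and NPC Podxl pA, with 3 libraries each, were collected on day 2 of differentiation. The 3 libraries of NPC Grb10 pA entered the model and no comparison.

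Podxl encodes podocalyxin, a heavily glycosylated membrane protein of the CD34 family. It is known for its negatively charged extracellular part, which keeps membranes apart, and for its place at the apical surface of kidney podocytes and of polarizing epithelia. In pluripotent cells it is a surface glycoprotein, and it binds the scaffold NHERF1 and the linker ezrin through its cytoplasmic tail.

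In GENCODE M21 (GRCm38), Podxl lies on the minus strand of chromosome 6 from 31519488 to 31563981 and its transcript has 8 exons and 5379 bases. Exon 1 (31563579 to 31563981) holds 333 untranslated and 70 coding bases. The guide and the end of exon 1 show where the RNA was interrupted and are given 5′ to 3′ on the strand of the gene. In the guide (31563564 to 31563583), capitals mark the 5 bases that lie in exon 1, and the other 15 match the start of intron 1. In the end of exon 1 (31563579 to 31563599), the capital marks the base that follows the insertion, as read from the primers of the donor.
guide: TAATGgtgagtggacagccg
end of exon 1: ctgcatctcactcccataatG
The insertion thus leaves 402 of the 5379 bases of the transcript (7.47%) ahead of it, with 69 coding bases, and the guide is followed by a CGG PAM in the donor primer.

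Podxl fell in ESC Podxl pA. Its normalized counts, which are reads scaled by library size, were 158, 163 and 123 in the WT replicates and 14.03, 16.0 and 60.1 in the Podxl pA replicates, from 13, 22 and 25 reads. The groups did not overlap, but replicate 3 of Podxl pA kept 40.6% of the WT mean, against 9.48% and 10.8% in the other replicates. The log2 fold change was -2.73 (standard error 0.24, adjusted p = 2.22e-07 by the quasi-likelihood test of edgeR) and -3.31 without replicate 3. In the NPC Podxl pA replicates, 9.08%, 9.86% and 8.47% of the NPC WT mean remained. Counts per gene do not show which part of the transcript the remaining reads came from. The ESC Grb10 pA libraries held 171, 149.7 and 196 normalized counts of Podxl, all above the Podxl pA libraries.

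**Figure D1:**
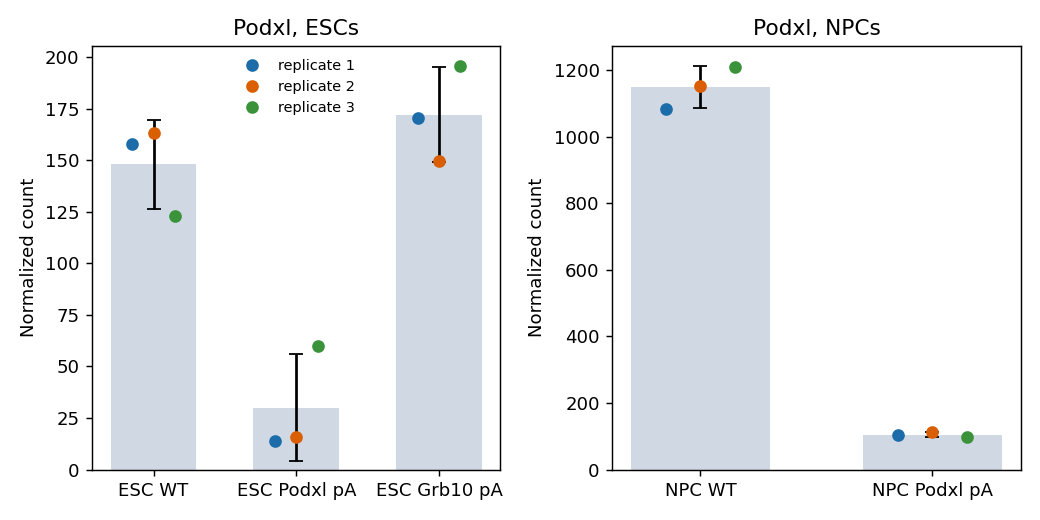
Normalized count of Podxl in each library (points), with the mean (bars) and SD (error bars) of each group of 3, in ESCs (left) and NPCs (right). The ESC Podxl pA libraries lie at 14.03, 16.0 and 60.1, below every WT and Grb10 pA library.

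The other members of the family did not pass the test. Podxl2 (endoglycan) had a log2 fold change of 0.69 (adjusted p = 0.734) and Cd34 of 0.79 (adjusted p = 0.547), at levels of at most 2.10 and 4.85 CPM in any ESC WT or Podxl pA library. Of 23 genes of podocalyxin partners and apical polarity, 21 were tested and none was dysregulated. Slc9a3r1, which encodes NHERF1, had 63.5 to 71.9 CPM in WT and 78.1 to 88.6 CPM in Podxl pA (log2 fold change 0.26, adjusted p = 0.580). Ezr, which encodes ezrin, spanned 241 to 259 CPM in WT and 230.1 to 254 CPM in Podxl pA, and these ranges overlapped.

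The pluripotency genes Nanog and Esrrb and the neural gene Sox1 were at the levels of ESCs. Nanog had 806 to 897 CPM in WT and 857 to 1016 CPM in Podxl pA, against 108 to 125 CPM in NPC WT, and Esrrb had 689 to 754, 653 to 704 and 48.1 to 65.4 CPM. Sox1 had at most 6.82 CPM in any of the 6 ESC libraries, against at least 75.0 CPM in NPC WT. The full list of neural markers did not separate the cell types this way, with a summed 355 to 376 CPM in ESC WT and 249 to 265 CPM in NPC WT. Tubb3 of that list had 135 to 147 CPM in ESC WT, 170 to 180 CPM in Podxl pA and 60.5 to 74.0 CPM in NPC WT. Its rise in ESCs did not pass the test (adjusted p = 0.125). Of 19 markers of extraembryonic endoderm, 16 were tested and none was dysregulated, with a summed level of 976 to 1032 CPM in WT and 934 to 1065 CPM in Podxl pA. Replicate 3 of Podxl pA stood apart in some of them, and those named here were chosen after their values were seen. Cubn, an endocytic receptor, had 0, 6 and 22 reads in Podxl pA (0, 4.37 and 52.9 normalized counts) and 2, 4 and 0 in WT, and Dab2, an adaptor of endocytosis, had 9, 26 and 19 (9.71, 18.9 and 45.7 normalized counts) against 18, 17 and 2. In the same replicate 3, Pdgfra, Col4a1 and Lamb1 had 2.62, 38.3 and 25.7 CPM, against at most 0.855, 31.6 and 20.2 CPM in WT. Col4a2 and Hnf4a had 12.6 and 1.57 CPM there, against at least 16.7 and 1.88 CPM in WT. Among the Podxl pA libraries it was the highest for the up-regulated genes Dnmt3l and Gja1 (175 and 228 normalized counts). It was the lowest for Prph and Sohlh2 (60.1 and 509). A link between these values was not tested. Reads on genes ranged from 1907505 to 6416353 per library, with replicate 3 the shallowest in both groups (2530435 in WT). Replicate 1 of WT stood apart in CT010467.1, which took 4.29% of its reads against 0.0293% to 0.646% in the other 5 libraries. Over the 500 genes that differed most between any 2 libraries, the root mean square log2 distance was 1.20 to 1.90 within Podxl pA, 1.31 to 1.78 within WT and 1.20 to 2.04 between them, so the groups were not separated on this scale. In bulk RNA, fewer cells that make an RNA and less of it per cell cannot be told apart.

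Few genes changed. Of 13268 genes tested, 45 (0.339%) were dysregulated, that is, past an adjusted p-value of 0.05 (Benjamini-Hochberg) and past 0.5 in log2 fold change, up or down. Of these, 11 (0.0829%) were up-regulated and 34 (0.256%) down-regulated, and 1220 genes had an unadjusted p-value under 0.05. In all 45, every Podxl pA library lay beyond every WT library, which held for 13.5% of all genes tested. After Podxl, the largest falls were those of Kctd21 (log2 fold change -2.24), Xlr3a (-1.29), Alg8 (-1.14) and 1110051M20Rik (-1.14), and the largest rises those of Mttp (1.49), Dok1 (0.94) and Prph (0.92). Kctd21 and Mttp, at means of 25.7 and 33.4 normalized counts in their higher group, were chosen after their values were seen.

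The count depended on single libraries. It was 15 without WT replicate 1, 12 without WT replicate 2, 15 without Podxl pA replicate 1 and 13 without Podxl pA replicate 2, and 38 or 33 without either replicate 3. Only the libraries of these 2 groups in the model gave 22. Podxl, Klf12, Dnah8, Map1b and Gm364 were called under all 13 alternatives tried for single genes, and no dysregulated gene changed direction under any of them. Every other dysregulated gene lost its call when at least 1 of the 6 libraries was left out.

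**Figure D2:**
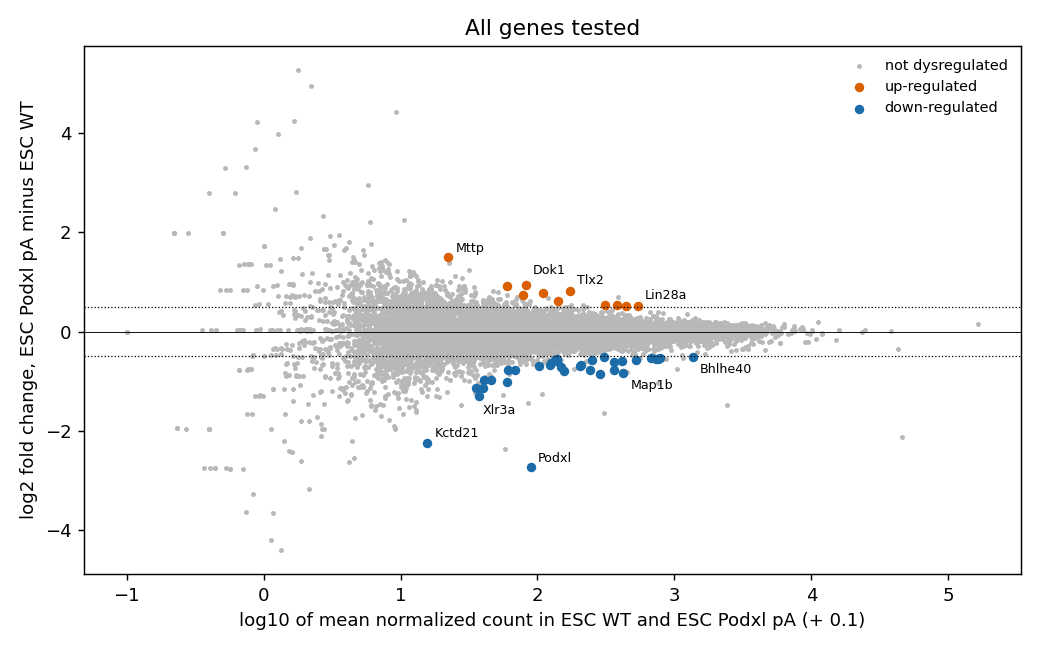
Log2 fold change in ESC Podxl pA relative to ESC WT (vertical axis) against the log10 of the mean normalized count (horizontal axis) for the 13268 genes tested. The 11 up-regulated and 34 down-regulated genes are colored, dotted lines mark a log2 fold change of 0.5, and most of the large changes at low counts did not pass the test, with Kctd21 and Mttp among the exceptions.

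**Figure D3:**
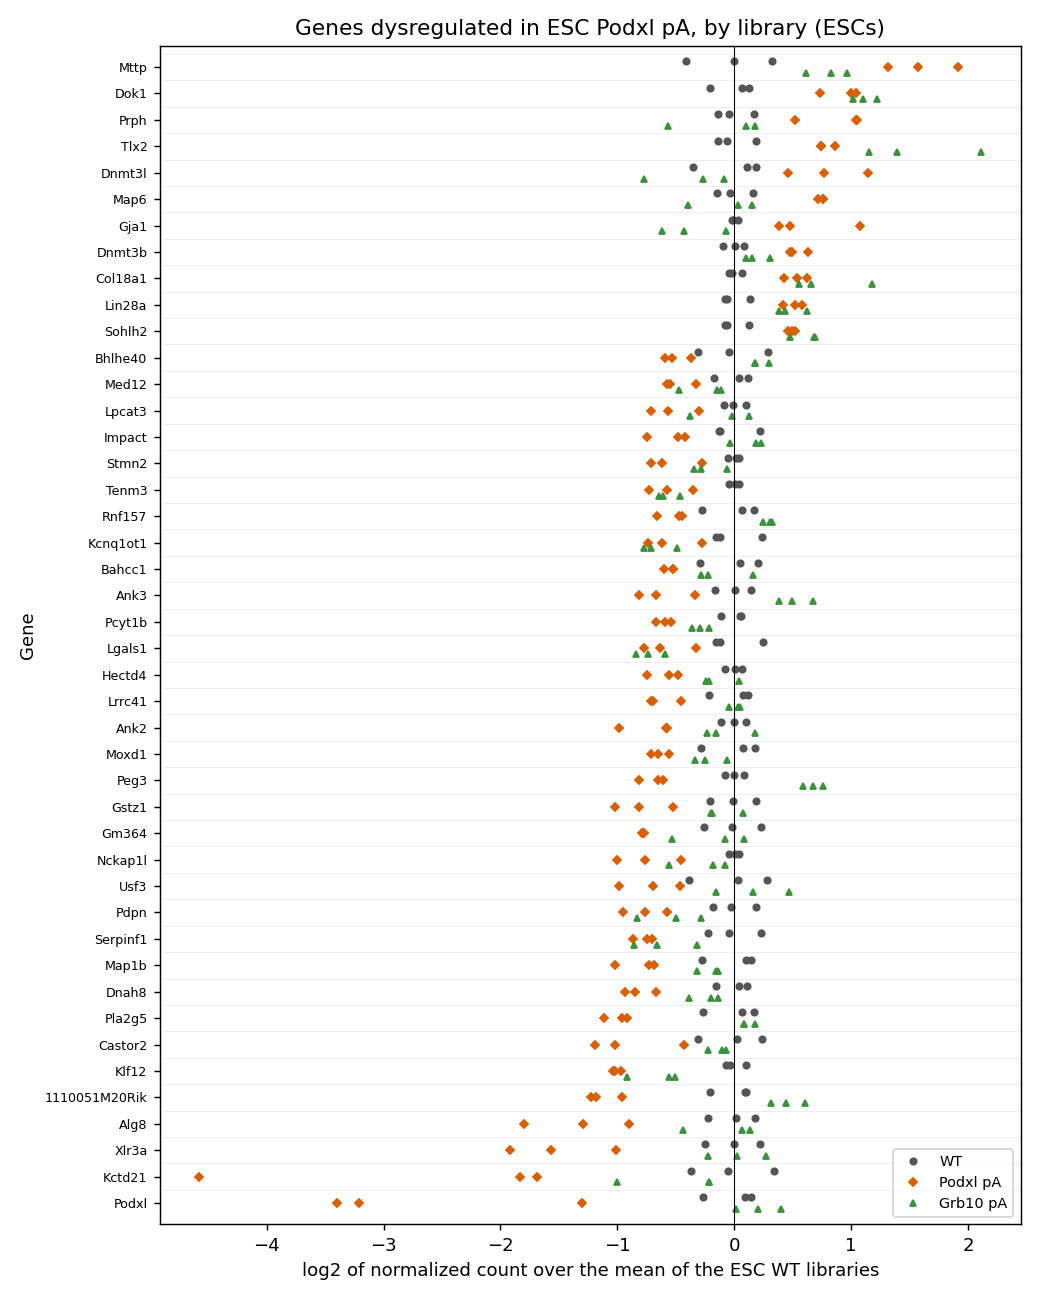
Normalized counts of 44 of the 45 dysregulated genes in each ESC library, as the log2 ratio to the mean of the WT libraries. Each gene has 3 WT, 3 Podxl pA and 3 Grb10 pA points, and the Podxl pA points lie on 1 side of the WT points in every row.

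Klf12, Dnah8, Map1b and Gm364 were the most stable of the other down-regulated genes. Klf12, a transcription factor of the Krüppel-like family, had 76.3, 85.5 and 77.9 normalized counts in WT and 38.8, 39.3 and 40.8 in Podxl pA. Its log2 fold change was -1.02 (standard error 0.17, adjusted p = 0.0044), between -1.06 and -0.96 over the alternatives. Dnah8 encodes a heavy chain of axonemal dynein, and its counts of 391, 372 and 326 in WT stood against 202, 190.2 and 228 in Podxl pA (log2 fold change -0.85, standard error 0.11, adjusted p = 0.000201). Map1b, a microtubule-associated protein of growing axons, went from 593, 577 and 446 to 335, 266 and 324 (log2 fold change -0.84, standard error 0.13, adjusted p = 0.00321). The X-linked gene Gm364 went from 384, 454 and 539.7 to 268, 266 and 269, a narrow range in Podxl pA (log2 fold change -0.77, standard error 0.13, adjusted p = 0.00583). In all 4, every Podxl pA library lay below every WT library.

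Other dysregulated genes of the cytoskeleton and of neurons moved in both directions, and these were grouped here after their values were seen. Stmn2, a neuronal regulator of microtubules, had 871, 828 and 886 normalized counts in WT and 524, 563 and 714 in Podxl pA (log2 fold change -0.54, adjusted p = 0.00613). The ankyrins Ank2 and Ank3, which tie membrane proteins to the spectrin skeleton, had log2 fold changes of -0.67 and -0.58, and Tenm3, a teneurin of neuronal wiring, of -0.55. Map6, which stabilizes microtubules, rose from 65.1, 56.7 and 52.5 to 98.2, 95.5 and 98.5 (log2 fold change 0.73, adjusted p = 0.0341), and Prph, which encodes the neuronal filament peripherin, from 40.7, 47.1 and 38.0 to 86.3, 86.7 and 60.1 (adjusted p = 0.0438). Among 19 markers of neural progenitors and neurons, 8 were tested and Stmn2 alone was dysregulated. Their summed level was 355 to 376 CPM in WT and 327 to 373 CPM in Podxl pA.

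Of the genes of DNA methylation, 2 rose. Dnmt3b, a de novo DNA methyltransferase, had 239, 256 and 272 normalized counts in WT and 355, 360.0 and 396 in Podxl pA, up by 0.53 in log2 fold change (standard error 0.09, adjusted p = 0.0044). Dnmt3l, its catalytically inactive cofactor, had 85.4, 62.3 and 90.6 in WT and 135, 109 and 175 in Podxl pA, up by 0.78 (standard error 0.17, adjusted p = 0.0336). The adjusted p of Dnmt3l reached 0.307 over the alternatives, while that of Dnmt3b stayed at or below 0.0373 and its log2 fold change was 0.49, under the cutoff, without WT replicate 1 and without Podxl pA replicate 3. In NPC WT, at 1731 and 1403 normalized counts, both genes were far above their ESC levels, and in NPC Podxl pA neither was dysregulated. Their log2 fold changes in NPCs were 0.26 for Dnmt3b (adjusted p = 0.112) and -0.03 for Dnmt3l (adjusted p = 0.959). Dnmt3b had 1750, 1692 and 1751 normalized counts in NPC WT and 2076, 2112 and 2025 in NPC Podxl pA. The other 7 of the 9 writers and erasers were not dysregulated in ESCs, and Tet1, an eraser, had a log2 fold change of -0.35 (adjusted p = 0.281). Of 20 germline genes known to be silenced by methylation that were tested, none was dysregulated, and their median log2 fold change was 0.12.

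Lin28a was the dysregulated gene among those of core pluripotency. It encodes an RNA-binding protein that blocks the maturation of let-7 and had 422, 428 and 489 normalized counts in WT and 597, 639.8 and 666 in Podxl pA (log2 fold change 0.51, standard error 0.09, adjusted p = 0.00583). ESC Grb10 pA had 625 ± 55.3 (SD, n = 3), near the level of Podxl pA. None of the 20 naive pluripotency genes tested was dysregulated, with log2 fold changes from -0.21 to 0.26 and a median of 0.04. Of 12 formative and primed genes, Dnmt3b alone was. Sohlh2, a germ cell transcription factor, rose from 351, 355 and 404 to 522, 529.8 and 509 (log2 fold change 0.51, adjusted p = 0.00684).

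Of 33 imprinted genes tested, 3 were down-regulated and none up-regulated. Peg3, a paternally expressed zinc finger gene, had 239, 267 and 252 normalized counts in WT and 144, 160.3 and 166 in Podxl pA (log2 fold change -0.70, standard error 0.13, adjusted p = 0.00919). Kcnq1ot1, the long noncoding RNA that silences its imprinted domain, had a log2 fold change of -0.58 (adjusted p = 0.0206). Impact, a paternally expressed regulator of translation, went from 862, 855 and 1094 to 560.0, 670.4 and 702 (log2 fold change -0.54, adjusted p = 0.00684). The median of the list was -0.09, against -0.0015 over all genes, and 20 of the 33 had a negative value against 6674 of the 13268. Nnat (-1.30, adjusted p = 0.194) and Peg12 (1.37, adjusted p = 0.113) had larger values of either sign on few reads, and neither passed the test.

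Dysregulated genes of lipid metabolism, also grouped after their values were seen, moved in both directions. Lpcat3, which remodels membrane phospholipids, had -0.54, Pcyt1b, of phosphatidylcholine synthesis, -0.59, and the secreted phospholipase gene Pla2g5 -0.97. Mttp, which loads lipid onto lipoproteins, rose from 8.14, 13.6 and 10.9 to 32.4, 27.0 and 40.8 (adjusted p = 0.00684), with no overlap but few reads. Of 27 genes of glycolysis and hypoxia, none was dysregulated and 25 had a negative value, where 6674 of the 13268 genes tested did. The median of the list was -0.15. Its summed level was 17655 to 19313 CPM in WT and 16995 to 17591 CPM in Podxl pA, which do not overlap. In the list, 6 genes had an unadjusted p-value under 0.05, against 1220 of the 13268. Of those 6, Ndrg1 had the lowest value, -0.61 (adjusted p = 0.129).

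Of the genes of the cell surface and matrix, Serpinf1, a secreted inhibitor of vessel growth, fell from 232, 192 and 168 to 121, 109 and 118 (log2 fold change -0.80, standard error 0.14, adjusted p = 0.00613). Pdpn, like podocalyxin a mucin-type membrane glycoprotein, went from 84.4, 75.9 and 97.8 to 50.7, 44.4 and 57.7 (log2 fold change -0.78, adjusted p = 0.0487), a call that was lost with each of the 6 libraries left out. Lgals1, which encodes galectin-1, had a log2 fold change of -0.60, and Gja1 and Col18a1, which encode connexin 43 and collagen XVIII, had 0.60 and 0.53. None of the 20 tested genes of adhesion and mesenchymal transition was dysregulated, and the median of the list was -0.12. Of the 20, 15 had a negative value, where 6674 of the 13268 genes tested did. An unadjusted p-value under 0.05 was found for 6 of them, against 1220 of the 13268. Fn1 had -0.36 (adjusted p = 0.268) and Vim 0.40 (adjusted p = 0.180).

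**Figure D4:**
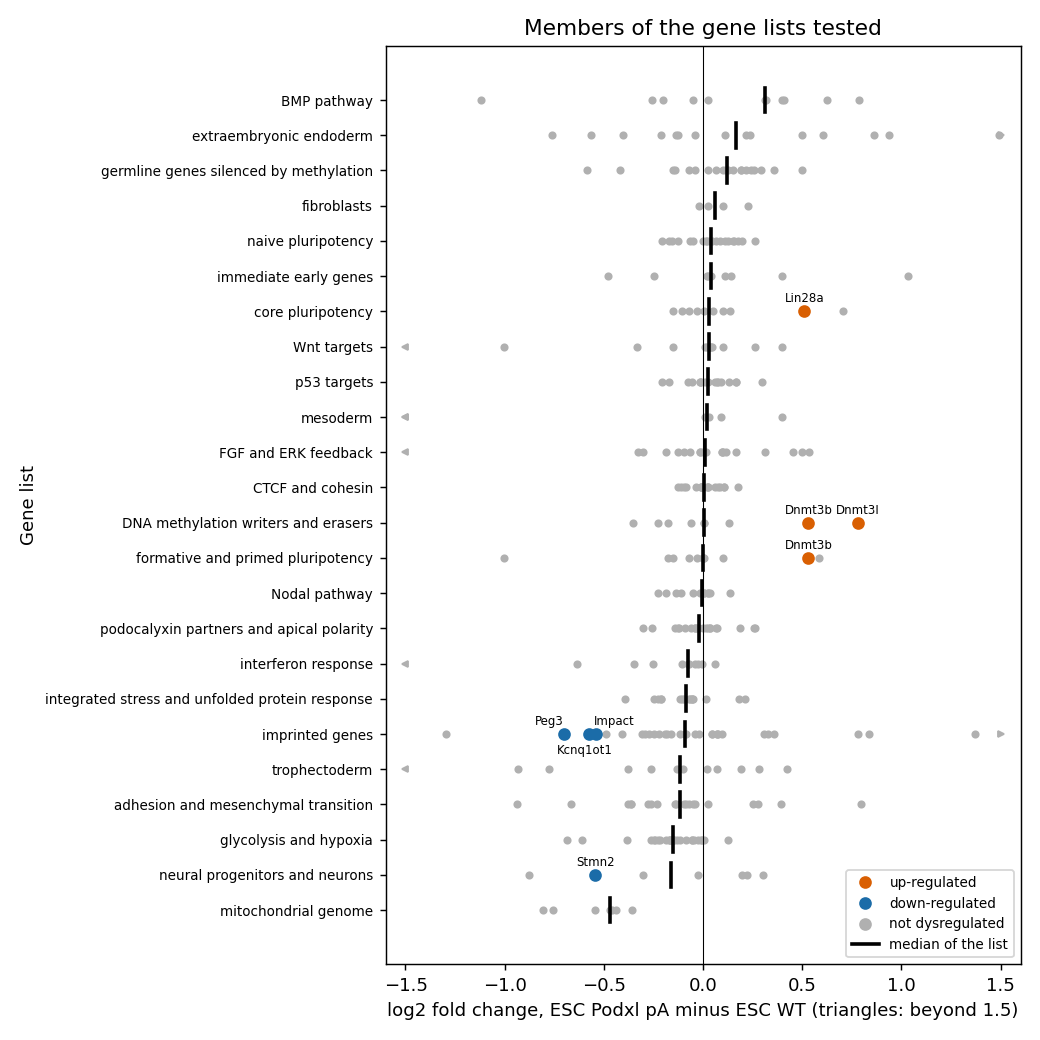
Log2 fold changes in ESC Podxl pA of the tested members of 24 gene lists (gray points, colored where dysregulated) with the median of each list (black bars). Triangles mark 8 points beyond 1.5 in either direction, and the dysregulated members are Lin28a, Dnmt3b, Dnmt3l, Peg3, Kcnq1ot1, Impact and Stmn2.

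No member of the lists of p53 targets, immediate early genes, FGF and ERK feedback, Wnt targets, the Nodal and BMP pathways, the interferon response, the stress responses, trophectoderm, extraembryonic endoderm, mesoderm, fibroblasts or the mitochondrial genome was dysregulated. Their medians lay between -0.11 and 0.31, except that of 7 mitochondrial genes at -0.47. Mitochondrial RNA took 0.273% to 0.431% of the reads in WT and 0.230% to 0.347% in Podxl pA, which overlap. Of 18 genes of CTCF and cohesin tested, none was dysregulated, with values from -0.13 to 0.18, and Ctcf itself had 219 to 238 CPM in WT and 234 to 256 CPM in Podxl pA. Of the 24 genes of 2-cell-like cells, 3 were tested and none was dysregulated. These 3 had at most 1.71 CPM in any of the 6 libraries and log2 fold changes from 0.71 to 5.26, with a median of 4.24. Of them, 2 had an unadjusted p-value under 0.05. The summed level of all 24 was 0.855 to 2.69 CPM in WT and 3.46 to 6.82 CPM in Podxl pA, which do not overlap. Such a gap was not particular to them, though the ranges of most lists overlapped. Naive pluripotency genes summed to 5476 to 5771 CPM in WT and 5785 to 5963 CPM in Podxl pA. Core pluripotency genes had 2000 to 2079 and 2109 to 2240 CPM. Formative and primed genes had 245 to 257 and 268 to 297 CPM. Those of glycolysis and hypoxia did not overlap either. The part of the 2-cell-like genes in the other changes was not tested.

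Around Podxl, no neighbor was dysregulated in ESCs. Within 1 Mb of its start, 5 of 11 protein-coding genes and a pseudogene were tested, and Podxl alone passed. Mkln1, the nearest tested gene (31398735 to 31516811), had a log2 fold change of -0.02 (adjusted p = 0.973), Copg2 of -0.04 and the imprinted gene Mest of -0.11 (adjusted p = 0.792). In NPCs, Mest was down-regulated, with -0.52 (adjusted p = 0.00349), and its effects in NPCs and ESCs did not differ past the cutoff (adjusted p = 0.301).

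Elsewhere, Kctd21 and Alg8 were adjacent. They lie on the plus strand of chromosome 7, from 97332327 to 97350213 and from 97371606 to 97392185, with 21392 bp and no tested gene between them. Kctd21 encodes a BTB domain protein and had 32.5, 24.8 and 19.9 normalized counts in WT and 1.08, 8.02 and 7.21 in Podxl pA (adjusted p = 0.0176). Alg8, a glucosyltransferase of N-glycan assembly, had 57.0, 43.1 and 50.7 in WT and 20.5, 27.0 and 14.4 in Podxl pA (standard error 0.24, adjusted p = 0.0284). Their nearest tested neighbors on each side, Usp35 (0.08) and Ndufc2 (0.00), did not move with them. The next tested genes, Gab2 (-1.41, adjusted p = 0.447) and Thrsp (-0.41, adjusted p = 0.734), had negative values that did not pass the test. In NPC Podxl pA, Kctd21 had -0.88 (adjusted p = 0.384) and Alg8 -0.79 (adjusted p = 0.0949), neither past the cutoff.

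Dok1, an adaptor of tyrosine kinase signaling, and Tlx2, a homeobox gene, lie 34852 bp apart on chromosome 6, with 4 tested genes between them that were not dysregulated. Dok1 rose from 48.8, 59.1 and 61.6 normalized counts to 93.9, 117 and 113 (log2 fold change 0.94, standard error 0.16, adjusted p = 0.00613), and Tlx2 from 121, 114 and 143 to 210.4, 229.5 and 211 (log2 fold change 0.81, adjusted p = 0.0399). In ESC Grb10 pA, Dok1 had 123 ± 9.03 and Tlx2 386 ± 141 (SD, n = 3), so neither rise set Podxl pA apart from the other line. Over chromosomes, the median log2 fold change lay between -0.02 and 0.02. In 12529 windows of 25 neighboring tested genes it lay between -0.20 and 0.21.

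On the X chromosome, Xlr3a (73086293 to 73097095) had 45.8, 54.3 and 63.4 normalized counts in WT and 18.3, 27.0 and 14.4 in Podxl pA (log2 fold change -1.29, standard error 0.26, adjusted p = 0.0193). It belongs to a cluster of lymphocyte-regulated genes whose copies are nearly alike, so that counts of single members are uncertain. The neighbors Xlr4a (-1.95, adjusted p = 0.181) and Xlr3b (-1.67, adjusted p = 0.356) did not pass the test.

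The NPC Podxl pA and NPC WT libraries come from the same lines. They do not enter the ESC fold changes, but they share the model that estimates the spread behind the ESC p-values, and 23 of the 45 calls were lost with only the 6 ESC libraries in it. In them 73 genes (0.55%) were dysregulated, and 6 of the 45 were called in the same direction, namely Podxl, Xlr3a, Klf12, Serpinf1, Gm364 and Impact, all down-regulated. Markers of extraembryonic endoderm moved in the same NPC libraries, with 9 of the 16 tested up-regulated, a median log2 fold change of 0.59 and a summed level of 2153 to 2639 CPM in NPC WT and 3549 to 3779 CPM in NPC Podxl pA. Their part in the NPC changes was not tested. Another 14 of the 45, or 20 with the 6 shared calls, had the same sign with an unadjusted p-value under 0.05 in NPCs. Of all 13268 genes tested, 1350 had such a p-value in NPCs with either sign. Of the 45, 31 had the same sign in both cell types, against 47.8% of all genes tested. Among the 34 down-regulated in ESCs, 26 were negative in NPCs, and among the 11 up-regulated 5 were positive, where 49.7% of all genes were positive. Impact had -0.55 in NPCs (standard error 0.09, adjusted p = 0.00248), close to its -0.54 in ESCs, and Serpinf1 had -0.65 (standard error 0.11, adjusted p = 0.00266). The NPCs come from the same 1 line and its parent, so a shared call does not tell the truncation from the history of the line.

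**Figure D5:**
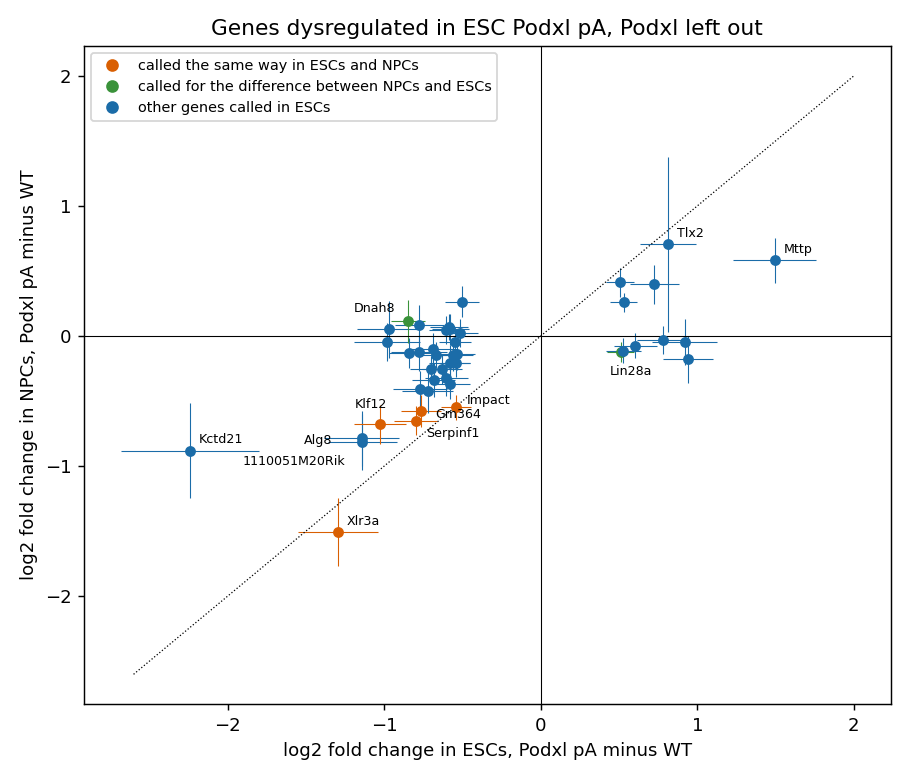
Log2 fold changes of the dysregulated genes other than Podxl in ESC Podxl pA (horizontal axis) and in NPC Podxl pA (vertical axis), each relative to WT, with standard errors as bars and equal values on the dotted line. Xlr3a, Klf12, Serpinf1, Gm364 and Impact were called in both, and 5 of the 11 up-regulated genes lie above 0 in NPCs.

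The difference between the effects in NPCs and ESCs was past the cutoffs for 13 genes (0.098%), in 9 (0.0678%) with a higher and in 4 (0.0301%) with a lower value in NPCs. Of the 13, 2 were dysregulated in ESCs. Lin28a, at 3084 ± 154 normalized counts in NPC WT and 2841 ± 98.8 in NPC Podxl pA (SD, n = 3), had a log2 fold change of -0.12 in NPCs, which differed from its rise in ESCs by -0.63 (adjusted p = 0.0144). Dnah8 had 48.8 ± 1.03 in NPC WT and 52.2 ± 4.62 in NPC Podxl pA (SD, n = 3), and its effect differed by 0.96 (adjusted p = 0.0499), a call lost in 11 of 17 alternatives, with an adjusted p of up to 0.183. That of Lin28a was lost in 5 of 18, with an adjusted p of up to 0.118. For the other 43, the difference was not past the cutoffs, which does not show that the effects were alike.

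Set against ESC Grb10 pA, 1318 genes (9.93%) differed in ESC Podxl pA, 570 up-regulated (4.3%) and 748 down-regulated (5.64%), and 25 of the 45 were called in the same direction as against WT, 5 up-regulated and 20 down-regulated. The ESC Podxl pA libraries are in both comparisons, so this count is no independent support. Dnmt3l (1.09, adjusted p = 6.95e-05), Gja1 (0.98), Prph (1.03), Map6 (0.81) and Mttp (0.72) were higher than in Grb10 pA. Peg3 (-1.37, adjusted p = 2.81e-08), 1110051M20Rik (-1.58), Xlr3a (-1.38), Alg8 (-1.13) and Map1b (-0.62) were among those lower. Serpinf1 (-0.16, adjusted p = 0.528), Kcnq1ot1 (0.09, adjusted p = 0.688), Lgals1 (0.13) and Tenm3 (0.03) were not past the cutoffs between the lines. Nor were Klf12 (-0.35, adjusted p = 0.211), Col18a1 (-0.29) and Sohlh2 (-0.13). Klf12 had 51.0 ± 7.51 normalized counts in ESC Grb10 pA (SD, n = 3), also below its WT libraries. For Tlx2 the direction was opposite, at -0.80 (adjusted p = 0.000999), as Grb10 pA lay farther from WT on the same side.

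The other dysregulated genes named here were all down-regulated. They were 1110051M20Rik, which went from 58.0, 58.3 and 47.1 normalized counts to 28.1, 23.3 and 24.0, Castor2 (-0.98), which encodes a regulator of the mTORC1 pathway, Usf3 (-0.77), Nckap1l (-0.77), Gstz1 (-0.72), Moxd1 (-0.69), Lrrc41 (-0.63), Hectd4 (-0.61), Bahcc1 (-0.58), Rnf157 (-0.56), Med12 (-0.51), a subunit of the Mediator kinase module, and Bhlhe40 (-0.50), a transcriptional repressor of the clock. Bhlhe40 had 1946, 1541 and 1279 normalized counts in WT and 1226, 1051 and 1096 in Podxl pA, close to overlapping. The deposited table is marked as counted without strand, and 1110051M20Rik, Dnmt3l, Lpcat3, Lrrc41, Gstz1, Col18a1, Mttp, Kcnq1ot1 and Dnah8 each overlap a protein-coding gene of the other strand, so that reads from the shared stretch cannot be assigned.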

How the data were processed

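RNA was depleted of ribosomal RNA, primed with random hexamers and made into directional libraries that were sequenced paired-end. The authors aligned reads to mm10 with STAR and deposited raw counts per gene from featureCounts, in a table marked as counted without strand. The annotation they used is not given in the sources used here, and gene positions were taken from GENCODE M21 on GRCm38. In the table, 3 columns match no sample and were not used.

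From the deposited counts, the 18 libraries of 6 groups were fitted together with 1 mean per group by edgeR 4.0.16 (R 4.3.3, limma 3.58.1), after filterByExpr and TMM scaling. Its quasi-likelihood test with Benjamini-Hochberg adjustment over all 13268 genes gave every p-value, 2-sided. Standard errors were taken from the fold change and its F value. Normalized counts are scaled to 4664294 reads, and CPM values are the deposited counts scaled to library size. The code was tested on simulated data. Alternatives used DESeq2 1.42.0, another scaling, other filters and other sets of libraries.

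Genes named by rule were the Podxl family, its tested neighbor, the 12 with the largest rise and fall among dysregulated genes that had at least 50 normalized counts in the higher group and no overlap between groups, those called the same way in NPCs, any within 1 Mb of Podxl, and the dysregulated members of the lists with up to 4 examples a list. Y-linked genes and Xist were not named, and 1 dysregulated gene and its list are not reported here. Other names are said to be chosen after their values were seen, and so are the dysregulated genes given with a fold change alone. Members and lists were chosen with earlier results of these data known. The study describes the replicates as biological, and the labels do not say whether they were separate cultures, so p-values measure the spread between these libraries.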

Additional observations from a re-analysis of the deposited data

Results flagged for a closer look

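The effect of the Podxl pA line differed between NPCs and ESCs for 13 genes, by edgeR's test of the difference itself with Benjamini-Hochberg adjustment. Of these, 5 were mitochondrial genes. The log2 fold change in NPCs minus that in ESCs was 2.26 for mt-Co1 (adjusted p = 0.00654), 2.56 for mt-Cytb (adjusted p = 0.00211), 2.87 for mt-Nd4 (adjusted p = 0.000457), 2.32 for mt-Nd5 (adjusted p = 0.000457) and 2.27 for mt-Nd6 (adjusted p = 0.00256). Their log2 fold changes were -0.36, -0.76, -0.81, -0.47 and -0.44 in ESCs, none of which passed the test, and 1.90, 1.81, 2.06, 1.85 and 1.83 in NPCs. Mitochondrial RNA took 0.226% to 0.801% of the reads in NPC WT and 0.815% to 1.48% in NPC Podxl pA, and the part of this share in the differences was not tested.

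Among nuclear genes, Lin28a (-0.63, adjusted p = 0.0144) and Dnah8 (0.96, adjusted p = 0.0499) were dysregulated in ESCs and not in NPCs. The actin-associated gene Cnn2, which encodes a calponin, differed by -1.13 (adjusted p = 0.00329), with 0.40 in ESCs and -0.73 in NPCs. Ccn2, a matricellular growth factor, differed by -1.36 (adjusted p = 0.0111), with 0.90 and -0.45. Tubb3, the neuronal beta-tubulin, differed by -0.66 (adjusted p = 0.0181), with 0.30 and -0.35. The RhoGAP gene Dlc1 (0.79, adjusted p = 0.0112), the long noncoding RNA Malat1 (0.63, adjusted p = 0.0499) and Ubn2 (0.64, adjusted p = 0.0499) differed the other way, with -0.29, -0.38 and -0.36 in ESCs and 0.50, 0.25 and 0.28 in NPCs. The 5 mitochondrial genes and Cnn2 kept their call under every alternative. The call was lost in 11 of 17 alternatives for Dnah8 (adjusted p up to 0.183), and in 11 of 18 for Ubn2 (up to 0.247), 10 for Malat1 (up to 0.165), 7 for Tubb3, 5 for Lin28a, 4 for Dlc1 and 3 for Ccn2.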

How the results depend on the processing

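The log2 fold change of Podxl kept its direction and passed the test under every alternative, from -3.39 to -2.37, and from -3.31 to -2.37 with 1 library left out. At an adjusted p of at most 0.01, 17 genes were dysregulated in ESC Podxl pA against WT, 877 against Grb10 pA and 40 in NPCs, and 6 differed between the cell types. Fitting no libraries beyond those being compared gave 22 against ESC WT, 133 in NPCs and 56 for the difference. With no filter on low counts, 94 genes were dysregulated in ESCs, all 45 among them, and 108 differed between the cell types, and DESeq2 gave 40 for the latter. With 1 library left out, the counts were 12 to 38 against ESC WT, 1063 to 1291 against Grb10 pA, 44 to 60 in NPCs and 6 to 28 for the difference. Without both ESC libraries of lowest depth (1907505 and 2530435 reads), chosen after seeing the data, 45 genes were dysregulated, 30 of them the same. Mkln1, near 0, ranged from -0.088 to 0.039 with 1 library left out and changed sign without WT replicate 3 (0.039), Podxl pA replicate 1 (0.0087) and Podxl pA replicate 2 (0.018). The causes were not tested.

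Replicate numbers did not pair ESC WT with ESC Podxl pA libraries, with correlations of deviations of -0.024, 0.0043 and -0.011. No ESC WT library correlated best with the Podxl pA library of its own number. With the replicate number as a block, 34 genes were dysregulated against ESC WT, 1298 against Grb10 pA and 72 in NPCs, 11 differed between the cell types, and Podxl had -2.73. The depth of 1907505 to 6416353 reads limits genes with few reads, such as Podxl2 and the markers of 2-cell-like cells.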
